A study of Arabidopsis thaliana with 4 samples.

Results

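GFAT and one unannotated probe set were examined in leaf discs of Arabidopsis thaliana after treatment with dithiothreitol (DTT), as 2 of the 22746 probe sets on each array that are not Affymetrix controls. Both were chosen by their higher signals in DTT than in control discs on these same arrays, so their values are given below as a description and were not tested. GFAT, locus AT3G24090, is measured by a probe set of its own. The other probe set is written here as ID.261485_at, where the prefix ID is not part of the array's own identifier. It was picked as that of UTR3, an endoplasmic reticulum (ER) nucleotide sugar transporter, but the platform annotation used here lists no gene for it. It is therefore called the unannotated probe set below, and no gene or role is given to it.

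The DTT discs lay in darkness for 1 h in a MES buffer to which 5 mM DTT was added, and the control discs for the same time in that buffer without it. All discs were wild type, accession Col-0, from full-grown source leaves of non-flowering plants taken as the night ended. Each group had 2 Affymetrix ATH1 arrays from biological replicates, named here DTT 1 and 2 and control 1 and 2. The labels do not say whether these came from separate plants or days. The comparison asked how a change in the cellular redox state alters transcript levels.

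UDP-N-acetylglucosamine (UDP-GlcNAc) is the activated sugar with which the cell begins each asparagine-linked glycan (N-glycan), each glycosylphosphatidylinositol anchor and each O-GlcNAc mark on a protein. It is made by the hexosamine pathway, whose first enzyme, glutamine:fructose-6-phosphate amidotransferase, is encoded by GFAT and joins the nitrogen of glutamine to a sugar phosphate. Nucleotide sugar transporters carry such activated sugars across the ER and Golgi membranes to the enzymes that use them. DTT reduces the disulfide bonds of proteins folding in the ER and is a standard agent for setting off the unfolded protein response.

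GFAT had MAS5 signals, which are linear and scaled to one level per array by the authors, of 104.3 in DTT 1 and 28.2 in DTT 2, against 18.8 in control 1 and 17.2 in control 2. Both DTT arrays lay above both control arrays, DTT 1 far above and DTT 2 by a ratio of 1.5 to the higher control. The mean signal was 66.2 ± 53.8 in DTT and 18.0 ± 1.13 in control (SD, n = 2 each). The DTT mean thus rested mostly on 1 array.

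Within replicate 1 the GFAT signal was 5.55-fold higher in DTT, a log2 difference of 2.47. Within replicate 2 it was 1.64-fold higher, a log2 difference of 0.71. The mean log2 difference was 1.59 ± 1.24 (SD of the 2 replicate differences), or 3.02-fold. Without DTT 1 it was 0.65, or 1.57-fold, and without DTT 2 it was 2.54, or 5.80-fold.

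The unannotated probe set had signals of 617 in DTT 1 and 305.4 in DTT 2, against 79.5 in control 1 and 51.6 in control 2. The groups lay well apart, with the lower DTT array at 3.84 times the higher control. The mean signal was 461 ± 220 in DTT and 65.5 ± 19.7 in control (SD, n = 2 each). Its log2 difference was 2.96 in replicate 1 and 2.57 in replicate 2, or 7.76-fold and 5.92-fold. The mean log2 difference was 2.76 ± 0.28 (SD of the 2 replicate differences), or 6.78-fold. It was 4.77-fold without DTT 1 and 9.63-fold without DTT 2.

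**Figure D1:**
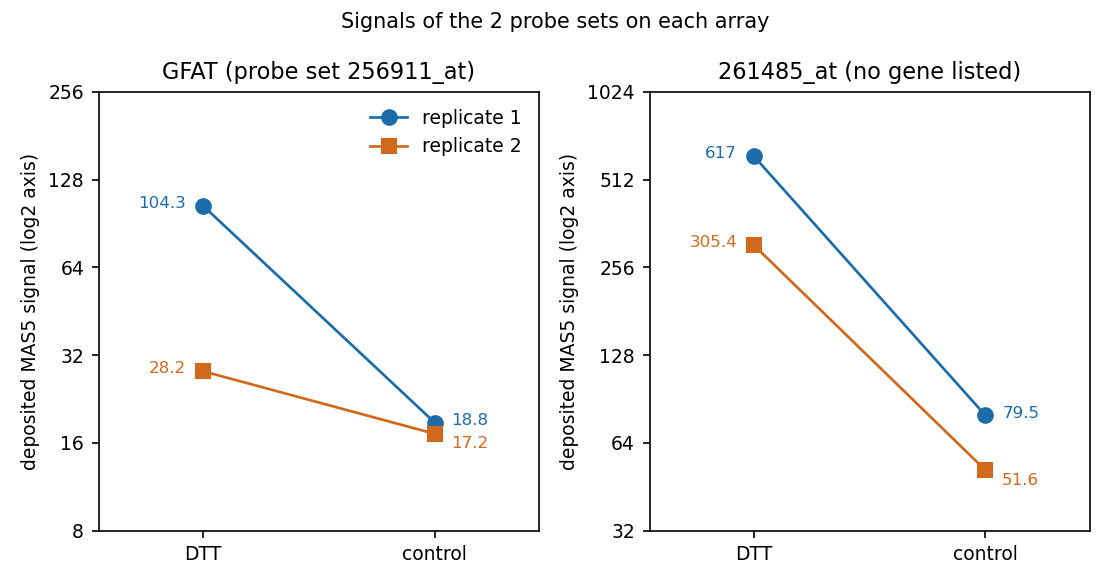
MAS5 signals on a log2 axis for GFAT (left) and the unannotated probe set (right, headed by its identifier), with DTT beside control and 1 line per replicate number. The lines of the unannotated probe set run nearly parallel, while GFAT was at 104.3 in DTT 1 and 28.2 in DTT 2 from nearly equal control signals of 18.8 and 17.2.

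The probe sets thus differed in how evenly the replicates shared the response. The log2 difference of the unannotated probe set exceeded that of GFAT by 0.48 in replicate 1 and by 1.85 in replicate 2. The gap between the replicate differences was 1.76 for GFAT, wider than in 99.1% of the 13648 probe sets tested. Those were not matched to GFAT for signal level. For the unannotated probe set it was 0.39, against a median of 0.34 over all tested. With 1 difference per replicate number, this contrast was not tested.

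The gap in GFAT came from the DTT arrays. DTT 1 exceeded DTT 2 by 1.89 on the log2 scale, a larger gap than in 96.5% of the probe sets tested, again not matched for signal level. The median gap over all tested was 0.51. Control 1 exceeded control 2 by 0.13, a gap smaller than the median of 0.43. For the unannotated probe set the log2 gaps were 1.01 between the DTT arrays and 0.62 between the controls, both with replicate 1 higher.

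Replicate 1 was also brighter for the hybridization control transcripts, which are added in fixed amounts. They have 9 probe sets, whose median ratio was 1.74 for DTT 1 over DTT 2 and 1.88 for control 1 over control 2. For DTT over control the median ratio was 0.998 in replicate 1 and 1.07 in replicate 2. The ratio of the 3' to the 5' actin control probe set was 2.64 in DTT 1 and 4.28 in DTT 2, against 3.45 in control 1 and 2.32 in control 2. For GAPDH that ratio was 1.11 and 1.13 in DTT 1 and 2, against 1.25 and 1.07 in control 1 and 2, and for ubiquitin 1.21 and 1.28 in DTT, against 1.78 and 1.25 in control. DTT 2 was thus the highest array for actin alone. The part of these in the GFAT values was not tested. Of 10 leaf marker genes, 1 had a probe set of its own, RCA (Rubisco activase), with signals of 3808.7 and 2999.4 in DTT against 4077.4 and 2751.6 in control. Of 12 markers of other cell types, only FMA of the guard cell lineage had one, at 26.0 and 31.6 in DTT against 31.4 and 23.8 in control. In discs of mixed cells, a change in cell make-up and a change in transcript per cell cannot be told apart.

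By mean log2 difference the unannotated probe set ranked 2nd and GFAT 16th from the top of the 13648 probe sets tested. Within replicate 1 they ranked 4th and 9th. Within replicate 2 they ranked 3rd and 335th. Among the 7373 tested probe sets annotated to 1 gene GFAT ranked 5th. Without the filter on low signals the unannotated probe set ranked 9th and GFAT 199th of 22746. The control signals of GFAT lay close to the filter level of 16.9, and its control arrays alone would have passed it. The detection calls of MAS5 were not used here, so whether GFAT was above background in the controls is not known, and its fold change depends on how far it was. Adding 64 to every signal before the log gave 1.52-fold for GFAT and 3.89-fold for the unannotated probe set.

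**Figure D2:**
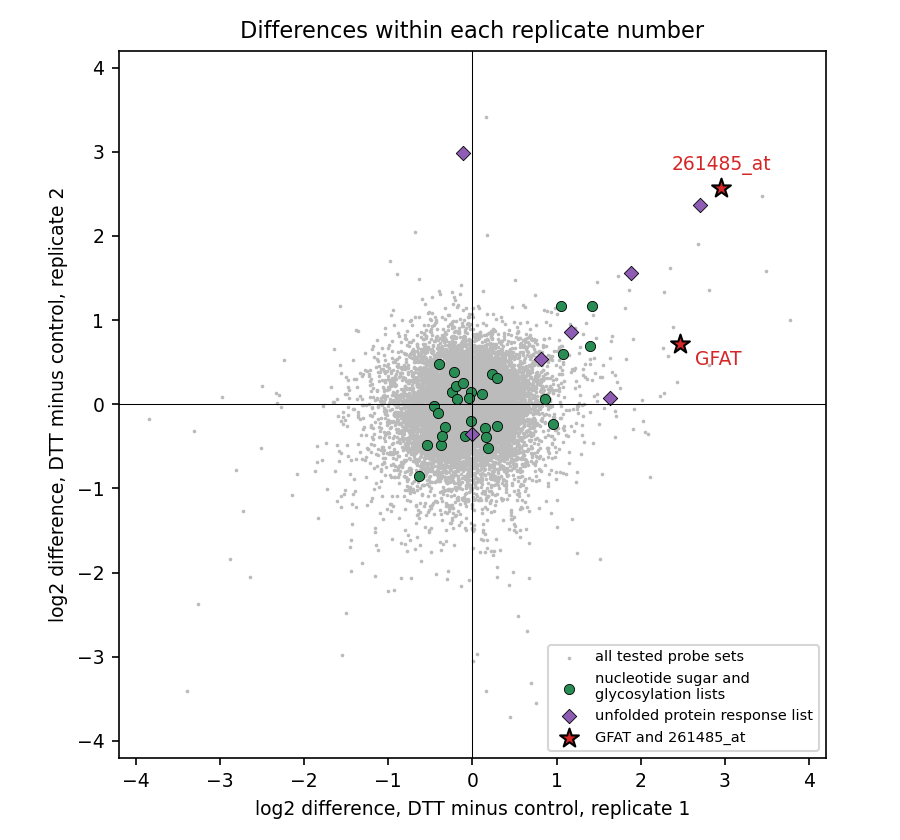
Log2 differences, DTT minus control, in replicate 1 (horizontal) and replicate 2 (vertical) for the 13648 probe sets tested (grey, 1 beyond the axes). Listed genes that passed the filter are shown for the nucleotide sugar and glycosylation lists (green) and the unfolded protein response list (purple). GFAT and the unannotated probe set are red stars. The stars lie at 2.47 and 0.71 for GFAT and at 2.96 and 2.57 for the unannotated probe set, to the right of nearly all grey points.

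In the limma fit of DTT against control, 0 of 13648 probe sets were called at an adjusted p under 0.05, which is 0% of those tested, and 95 had an unadjusted p under 0.05. That fit had no block for the replicate number, and the closing section gives the fit with one. Log2 signals correlated at 0.968 between DTT 1 and control 1 and at 0.972 between DTT 2 and control 2. Within groups they correlated at 0.885 in DTT and 0.919 in control. The spread in the fit without a block thus takes in differences between replicate numbers, and a lack of calls does not show a lack of change. An exact permutation test of 2 arrays against 2 cannot go below p = 0.333 (two-sided). Other genes of the pathway are therefore given by their signals and by whether the groups overlapped. Both DTT arrays lay above both control arrays for 8.01% of probe sets tested and below both for 9.81%. Differences of at least 2-fold in both replicate numbers were seen upward for 0.132% and downward for 0.271%. The median log2 difference over all tested was -0.01.

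The lists for synthesis, transport and use of nucleotide sugars, taken with the calnexin cycle, held 149 genes in 8 lists. Of these, 34 had a probe set of their own in the annotation. Apart from GFAT, 30 of these passed the filter. The limma fit called 0 of the 30. Of the 30, 5 had both DTT arrays above both controls, 2 had both below and 23 overlapped, with a median log2 difference of 0.01. The 5 above were 16.7% of the 30, against 8.01% of all tested, and the 2 below were 6.67%, against 9.81%. Of the 5, 3 belong to the calnexin cycle. In the other 7 lists 27 genes were tested apart from GFAT, with a median log2 difference of -0.05. Of the 27, 2 had both DTT arrays above both controls (7.41%) and 2 had both below (7.41%), near the shares over all tested. Where the annotation gives a locus alone, the enzyme named below is the one the list assigned to it.

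The hexosamine pathway had 1 other measured gene of 4. DRT101, the mutase acting on the phosphate of N-acetylglucosamine, had signals of 40.9 and 18.2 in DTT 1 and 2, against 63.6 and 32.8 in control 1 and 2. It was 1.56-fold lower in replicate 1 and 1.80-fold lower in replicate 2, the opposite direction to GFAT. Its groups overlapped, with replicate 1 the brighter in both, and the fit did not call it (log2 difference -0.74, SE 0.56, limma adjusted p = 0.9999). GNA1 and the genes GlcNAc1pUT1 and GlcNAc1pUT2, of the acetylation and uridylylation steps, had no probe set of their own in the annotation.

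Of 26 nucleotide sugar transporters 7 were measured and 0 were called. UTR3 is among the 26 but had no probe set of its own in the annotation, so the unannotated probe set is not counted here. None of the 7 had both DTT arrays above both controls. The highest mean log2 difference among them was 0.30, at AT5G59740, listed as UTR4. The signals of AT5G59740 were 29.7 and 60.3 in DTT, against 25.2 and 47.0 in control. AT1G06890, listed as the UDP-xylose transporter UXT3, had both DTT arrays below both controls, at 50.9 and 57.9 in DTT against 73.9 and 81.0 in control, a log2 difference of -0.51 (SE 0.32). AT5G65000, listed as ROCK1, a transporter of the ER, had log2 differences of -0.40 and 0.48 in the replicates. AT5G04160 (UUAT1), AT2G30460 (UXT2) and AT5G41760 (CSTLP3) had mean log2 differences of -0.24, -0.24 and 0.08. AT4G35335 (CSTLP1) had -0.30 on its brighter probe set and -0.46 on the other.

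Of 19 genes for glutamine and sugar phosphate supply, 2 were measured, both with overlapping groups. AT5G42740, the cytosolic isomerase that makes the fructose phosphate used by GFAT, had a log2 difference of 0.02, and USP, which forms several UDP-sugars, had -0.06. None of the 10 listed glutamine amidotransferases and glutamate synthases had a probe set of its own. Of 39 genes for other nucleotide sugars, 3 were measured. PMM, the phosphomannomutase that leads to GDP-mannose, had signals of 621.9 and 452 in DTT, against 294.4 and 297.6 in control. Its groups did not overlap, and it was 2.11-fold higher in replicate 1 and 1.52-fold in replicate 2 (log2 difference 0.84, SE 0.33, limma adjusted p = 0.9999). GER2 of GDP-fucose synthesis had -0.12 and GME, the GDP-mannose epimerase, 0.12.

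The N-glycan precursor is built on dolichol in the ER membrane from UDP-GlcNAc, GDP-mannose and UDP-glucose. Of 17 genes for it 8 were measured and 7 passed the filter, with a median log2 difference of -0.05. GPT, the transferase that uses UDP-GlcNAc in the opening step, had signals of 137.7 and 107.5 in DTT, against 70.8 and 126.6 in control. Like GFAT it was higher in DTT 1 than in control 1, by 1.94-fold, but in replicate 2 its log2 difference was -0.24. AT4G18230 and AT4G16710, listed as ALG14 and ALG13 of the following UDP-GlcNAc step, had log2 differences of -0.11 and 0.06.

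AT2G44660, listed as the late glucosyltransferase ALG8, had signals of 119 and 87.0 in DTT, against 57.5 and 38.6 in control. It was 2.07-fold higher in replicate 1 and 2.25-fold in replicate 2 (log2 difference 1.11, SE 0.38). The limma adjusted p was 0.9999 without a replicate block and 0.0181 with one. AT2G44660 and AT5G07340 of the calnexin cycle were the only ones of the 30 with at least 2-fold in both. The mannosyltransferase gene AT1G16570 (ALG1) had both DTT arrays below both controls, at 74.7 and 57.9 in DTT against 96.8 and 80.7 in control. AT1G78800 (ALG2) and AT5G38460 (ALG6) had log2 differences of -0.26 and -0.05, and that of AT5G38460 turned to 0.01 with quantile normalization and to 0.04 with one median per array. AT2G39630 (ALG5) was below the filter, at 4.6 and 29.2 in DTT against 19.0 and 30.6 in control.

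Oligosaccharyltransferase moves the finished glycan to the protein. Of its 12 listed genes 3 were measured. AT1G76400 and AT2G01720, listed as OST1A and OST1B, had overlapping groups and log2 differences of 0.01 and 0.07. AT1G11560 (OST3/6B) was below the filter, at 7.7 and 13.7 in DTT against 14.0 and 11.3 in control.

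All 3 measured genes of the 18 listed for the calnexin cycle and ER glycan trimming had both DTT arrays above both controls, as did 8.01% of all probe sets tested. The median log2 difference of the 3 was 1.05. AT5G07340, a calnexin, had signals of 123.7 and 53.1 in DTT, against 46.3 and 23.7 in control. CRT1b, a calreticulin, had 525.4 and 201.8 in DTT, against 198.9 and 124.7 in control. OS9, a lectin of ER-associated degradation, had 159.2 and 121.1 in DTT, against 87.5 and 115.7 in control, so that its groups barely separated. None of the 3 was called by limma without a replicate block (adjusted p = 0.9999 for each). With the replicate number as a block, AT5G07340 and CRT1b were called (limma adjusted p = 0.0074 and 0.0249). The labels do not say that these numbers mark pairs. The calnexin cycle list was, like the others, chosen with earlier results of these data known. Its count and its p-values are thus a description and not independent support. For all 3 the replicate 1 difference was the larger, as it was for GFAT.

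Of 13 genes for other uses of UDP-GlcNAc and for Golgi glycan processing 6 were measured and 5 passed the filter, all with overlapping groups. SPY, the O-fucosyltransferase related to O-GlcNAc transferases, had log2 differences of 0.18 and -0.52 in the replicates. SEC, the O-GlcNAc transferase, had 0.29 and 0.31, with signals of 559.9 and 711.8 in DTT against 458.6 and 573.9 in control. SETH2, of the first step of glycosylphosphatidylinositol anchor synthesis, had a mean log2 difference of 0.02. Of 24 genes of the unfolded protein response 7 were measured. Of the 7, 5 had both DTT arrays above both controls (71.4%, against 8.01% of all tested), and the median log2 difference of the 7 was 1.02. The 5 were AT4G29520, ATERDJ3B, DER2.1, DER1 and BZIP60, with mean log2 differences of 2.54, 1.72, 1.02, 0.85 and 0.68. On its brighter probe set DER1 had 1.63 in replicate 1 and 0.07 in replicate 2. The groups overlapped for BZIP28, at a mean log2 difference of -0.18, and for BZIP17. BZIP17 had -0.11 and 2.99 in the replicates, with a signal of 3.9 in control 2. The unfolded protein response list was known from earlier results of these arrays to hold high values.

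**Figure D3:**
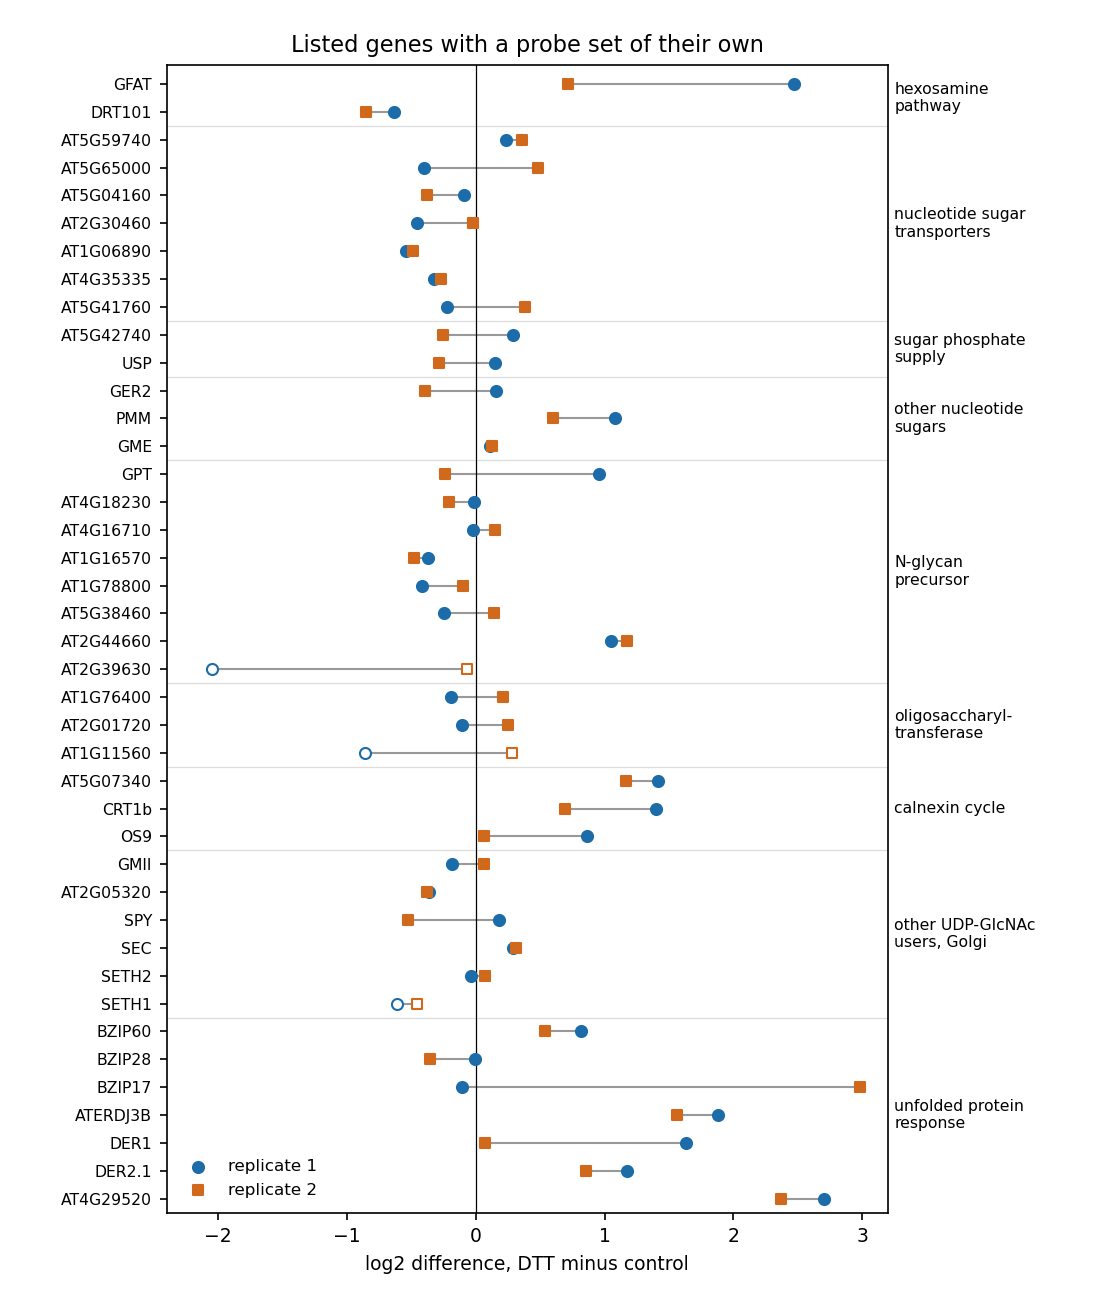
Log2 differences, DTT minus control, for each listed gene with a probe set of its own, with replicate 1 as blue circles and replicate 2 as orange squares. Open symbols mark genes below the filter on low signals. Most genes of transport and glycan assembly sit near 0, while GFAT, PMM, AT2G44660, the 3 calnexin cycle genes and 5 of 7 unfolded protein response genes had both symbols to the right of 0, as did AT5G59740, GME and SEC.

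Genes with the pattern most like each probe set were found as the nearest by Euclidean distance between log2 signals centred on their mean over the 4 arrays, among the 7373 tested probe sets with 1 gene. Since the choice of GFAT and the unannotated probe set fixed much of that pattern, the order is a description. For GFAT the nearest was AT1G64460, at a distance of 0.63, against a median of 2.14 over all. Its signals were 268.2 and 78.4 in DTT, against 79.7 and 68.5 in control, with DTT 1 alone far from the rest. ATERDJ3B, a co-chaperone of the ER lumen, AT4G16660, CRT1b and AT5G47420 followed at 0.74 to 0.77.

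For the unannotated probe set the nearest was AT4G29520, at 0.43, against a median of 2.95. Its signals were 673 and 264.9 in DTT, against 103.6 and 51.2 in control. AT4G34630 (0.90), ATERDJ3B (1.08), GFAT (1.37) and AT5G07340 (1.5) came next. GFAT was thus the 4th nearest of the named probe sets to the unannotated probe set, while 73 named probe sets lay closer to GFAT than the unannotated probe set did.

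**Figure D4:**
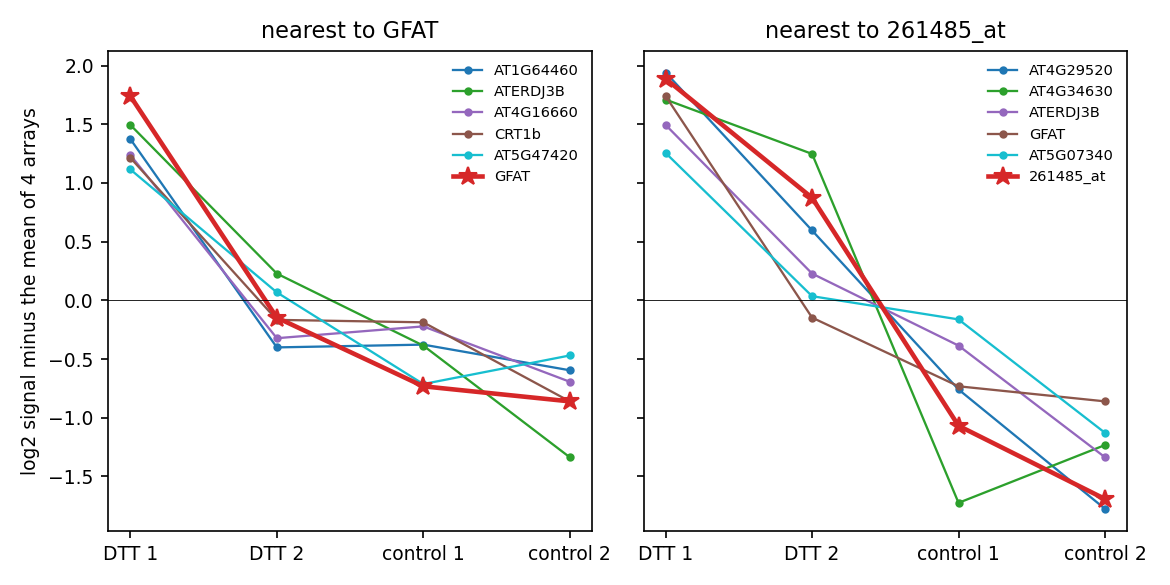
Log2 signals minus their mean over the 4 arrays, on DTT 1 and 2 and control 1 and 2, for GFAT (left) and the unannotated probe set (right) as thick red lines and for the 5 nearest named probe sets as thin lines. Around GFAT the lines drop between DTT 1 and DTT 2, and around the unannotated probe set every line has both DTT arrays above both control arrays.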

How the data were processed

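Total RNA from 4 leaf disc samples was biotin-labelled and hybridized to ATH1 arrays. The authors deposited 1 linear intensity (MAS5 signal, per the submitters' processing notes) per probe set and array, with a 2% trimmed mean of 100 on each. Array medians were 25.4 to 32.8. The software version was not given in the sources used here, and no detection calls were used. The small number of arrays, 2 in each group, limits the precision.

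Groups came from the sample titles. Signals of 0 were set to 0.1 and log2 was taken. Of 22746 probe sets that are not controls, the filter removed those whose log2 signal averaged less than the 40th percentile (4.08). The other 13648 were fitted with lmFit and eBayes with a variance trend (limma 3.58.1, R 4.3.3) without a block, with Benjamini-Hochberg adjustment at 0.05. The fit was run on simulated data to check for bias in the log2 differences, and its power to call changes is not reported here. Of the probe sets, 13513 had 1 gene, 503 several and 8730 none listed, and 13436 of the first matched a RefSeq locus, used for names only. A gene with several probe sets was represented by the brightest in counts.

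The members and lists were chosen with earlier results of these data known. Named were both members, all measured genes of the hexosamine, transporter, N-glycan precursor and oligosaccharyltransferase lists, up to 4 non-overlapping genes of other lists, and the 5 nearest patterns. The other genes of those other lists, RCA and FMA were named after their values were seen.

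The alternatives changed the scaling (quantile normalization, or one median per array), the pseudocount (16 and 64), the filter (none, or the 60th percentile), the variance model (no trend, or robust eBayes) and the design (a replicate block, or each array left out). Plots were drawn with matplotlib 3.10.9 (Python 3.11.15).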

Additional observations from a re-analysis of the deposited data

How the results depend on the processing

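Both probe sets kept a higher DTT signal under every alternative run on them. Since both DTT arrays lay above both control arrays for each, only the changes of scaling could have reversed that direction. The log2 difference of GFAT was 1.59 and ranged from 0.60 with log2(signal + 64) to 1.70 with quantile normalization. Without single arrays it ranged from 0.65 (without DTT 1) to 2.54 (without DTT 2). For the unannotated probe set it was 2.76, was 1.96 with log2(signal + 64), which damps low signals by construction, and ranged from 2.25 to 3.27 without single arrays. No probe set was called under any alternative except the replicate block and without DTT 1, where the fit called 3, all lower (0 to 3 without single arrays). Whether arrays of the same replicate number share a batch is not stated in the labels. The differences between replicates in DTT and in control correlated at 0.746 across tested probe sets. With the replicate block limma called 126 of all 13648 tested, of which 39 were higher and 87 lower. Among the 126 were 1 of 7 tested N-glycan precursor genes (AT2G44660, adjusted p = 0.0181), 2 of 3 calnexin cycle genes (AT5G07340 and CRT1b) and 3 of 7 unfolded protein response genes. Without the block 0 of each were called, and no tested gene of the other lists was called with it. The lists were chosen with earlier results of these data known, so these counts are a description. The limma adjusted p with the block was 0.0791 for PMM and 0.359 for DRT101. Of the 30 tested genes of the nucleotide sugar and glycosylation lists, 5 had both DTT arrays above both controls. That count was 7 with quantile normalization and 6 with one median per array, while those below numbered 2, and 3 or 2. Of 38 listed probe sets, which include the unfolded protein response list, 1 changed sign with quantile normalization and 3 with one median per array. The count was 0 with either pseudocount and 3 to 15 without single arrays. The alternatives for single genes, for list counts without single arrays and for overlap were added after seeing the data. GFAT signals in control lay near the filter level, and whether they were above background is not known, so its fold change is uncertain.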
